A study of Rattus norvegicus with 96 samples.

Results

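The neuronal immediate early genes are genes whose transcripts rise within minutes of strong synaptic input without needing new protein. Here they were 10 genes, namely Fos, Fosb, Junb, Egr1, Egr2, Egr4, Arc, Nr4a1, Nr4a3 and Dusp1, taken as every probe set that the array annotation pairs with 1 of these symbols. The rule itself reads no measured value, but the 10 genes were proposed with earlier results of these data known. It found 16 probe sets for these 10 of 14217 named genes, among the 31099 of the array, each a group of short probes against 1 transcript. In the amygdala's central nucleus (CeA) 12 of the 16 passed the filter on low values, and in the nucleus accumbens shell (NAc shell) 13 did. The probe sets left out of testing in both regions were Fos 1371283_at, Egr2 1398266_a_at and Dusp1 1368147_at, and Egr4 1375784_at was left out in the CeA. Every gene kept at least 1 tested probe set in each region.

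All rats were of the alcohol-preferring P strain, a line bred for high voluntary ethanol intake. Ethanol rats drank it in limited-access sessions, and water rats received no ethanol. Sampling 1, 6 or 24 h after the last session gave 11, 10 and 10 ethanol arrays and 6, 5 and 6 water arrays in the CeA, and 10, 10 and 11 ethanol arrays and 7, 5 and 5 water arrays in the NAc shell. The labels give no age, no dose and no clock time, and do not say whether each array was a separate rat or whether both regions came from the same rats, so all p-values measure only the spread between these arrays.

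Immediate early genes are switched on when calcium and kinase signals from active synapses reach transcription factors already bound at their promoters, chiefly CREB at cAMP response elements and SRF with its Elk partners at CArG boxes. Their transcripts are short-lived, so their level in tissue is widely read as a mark of recent neuronal activity. The CeA carries much of the amygdala's output in fear, stress and ethanol withdrawal, whereas the NAc shell belongs to the ventral striatum and takes part in reward.

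The RefSeq table of promoters (rat build GRCr8) held 7 of the 10 genes: Fosb, Junb, Egr1, Egr2, Egr4, Nr4a1 and Dusp1. The 250 bases before the listed start were searched on both strands for the cAMP response element TGACGTCA, for its core TGACG, which also lies inside the full element, and for the CArG box. TGACG was present in 6 of the 7 windows, in all but Fosb, against 18.2% of 33469 promoters. The CArG box was present in Egr1, with 2 matches, and in Egr2, with 1, against 1.5% of promoters. The full TGACGTCA was found in Dusp1 alone among the 7, against 1.59% of promoters. The stretches from base -250 to base -41 are printed for 4 genes, with every match in capitals (a core on the opposite strand reads CGTCA): Egr1 and Egr2 as the members that hold CArG boxes, Nr4a1 as the member with the most cores, and Dusp1 as the member that varied apart from the others in the CeA. A match describes the letters of the window and is no measurement of binding.
Egr1, chr18:26736828-26737037, plus strand: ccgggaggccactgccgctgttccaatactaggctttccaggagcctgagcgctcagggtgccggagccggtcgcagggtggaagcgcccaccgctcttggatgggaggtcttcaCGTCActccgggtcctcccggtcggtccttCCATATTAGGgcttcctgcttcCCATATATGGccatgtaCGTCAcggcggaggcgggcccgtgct
Egr2, chr20:21054482-21054691, minus strand: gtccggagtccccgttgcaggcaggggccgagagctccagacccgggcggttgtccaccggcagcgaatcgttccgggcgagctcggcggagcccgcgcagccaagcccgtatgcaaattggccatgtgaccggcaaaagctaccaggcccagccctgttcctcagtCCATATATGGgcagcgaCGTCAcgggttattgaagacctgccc
Nr4a1, chr7:134259888-134260097, plus strand: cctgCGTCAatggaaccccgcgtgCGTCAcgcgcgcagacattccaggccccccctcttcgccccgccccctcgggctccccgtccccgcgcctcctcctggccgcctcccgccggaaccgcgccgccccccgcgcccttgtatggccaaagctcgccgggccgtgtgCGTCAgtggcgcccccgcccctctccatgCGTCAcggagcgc
Dusp1, chr10:17184603-17184812, plus strand: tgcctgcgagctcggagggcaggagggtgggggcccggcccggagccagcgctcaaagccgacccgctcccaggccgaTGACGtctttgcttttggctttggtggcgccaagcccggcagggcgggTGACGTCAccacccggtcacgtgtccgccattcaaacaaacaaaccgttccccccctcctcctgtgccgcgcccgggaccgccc
In Egr1 the CArG boxes began at bases -105 and -83 and the cores at -135 and -66, and in Egr2 the CArG box began at -83 and the core at -66. In Nr4a1 the 4 cores began at -246, -226, -82 and -53. In Dusp1 the full element began at -124 and a further core at -172.

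Values were log2 expression values, so a difference of 1 is a doubling. Medians of the CeA arrays spanned 7.68 to 7.82 and those of the NAc shell 7.78 to 7.86. The lower quartiles, 5.75 to 5.88 against 6.01 to 6.16, did not overlap, so the authors seem to have normalized each region on its own, and levels set across the regions rest on that. Replicate numbers in the CeA titles form 4 runs, since the sequence of times restarts at certain numbers, and 8 arrays belonged to the fourth. What a run stands for is not given in the sources used here. In the CeA 4 arrays stood apart by a low median correlation to the region's other arrays, all of them in title run 4: ethanol at 1 h replicate 27, ethanol at 6 h replicate 30 and water at 6 h replicates 16 and 17. In the NAc shell there were 5, all of ethanol rats: replicate 33 at 1 h, 43 and 44 at 6 h, and 55 and 59 at 24 h. Markers matched the labelled regions unevenly. Of 7 CeA neuron markers, Crh, Prkcd and Gad2 had the higher mean in the CeA, Crh with 9.15 (SD 1.16, n = 48) against 6.50 (SD 0.62, n = 48), and the other 4, Sst, Nts, Tac1 and Gad1, had the higher mean in the NAc shell, Tac1 with 7.799 (SD 0.42, n = 48) in the CeA against 10.29 (SD 0.50, n = 48). All 7 striatal projection neuron markers were lower in the CeA, among them the dopamine receptor gene Drd1 at 11.30 (SD 0.63, n = 48) against 13.74 (SD 0.34, n = 48). Of 5 genes listed as cortical and basolateral glutamate neuron markers, Slc17a6, Neurod6 and Rorb had the higher mean in the CeA and Slc17a7 and Tbr1 the lower. Slc17a6 stood at 10.14 (SD 1.10, n = 48) against 8.10 (SD 1.23, n = 48). Slc17a7 stood at 6.48 (SD 0.88, n = 48) against 6.87 (SD 0.85, n = 48). The means of Slc17a7, Neurod6 and Tbr1 lay under the filter on low values in both regions (6.96 in the CeA, 7.09 in the NAc shell). The lower Slc17a7 and Tbr1 means in the CeA went the same way as its lower quartiles. Which cells Slc17a6 marks in this tissue was not tested. In bulk tissue, fewer cells of a type and less RNA per cell cannot be told apart.

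**Figure D1:**
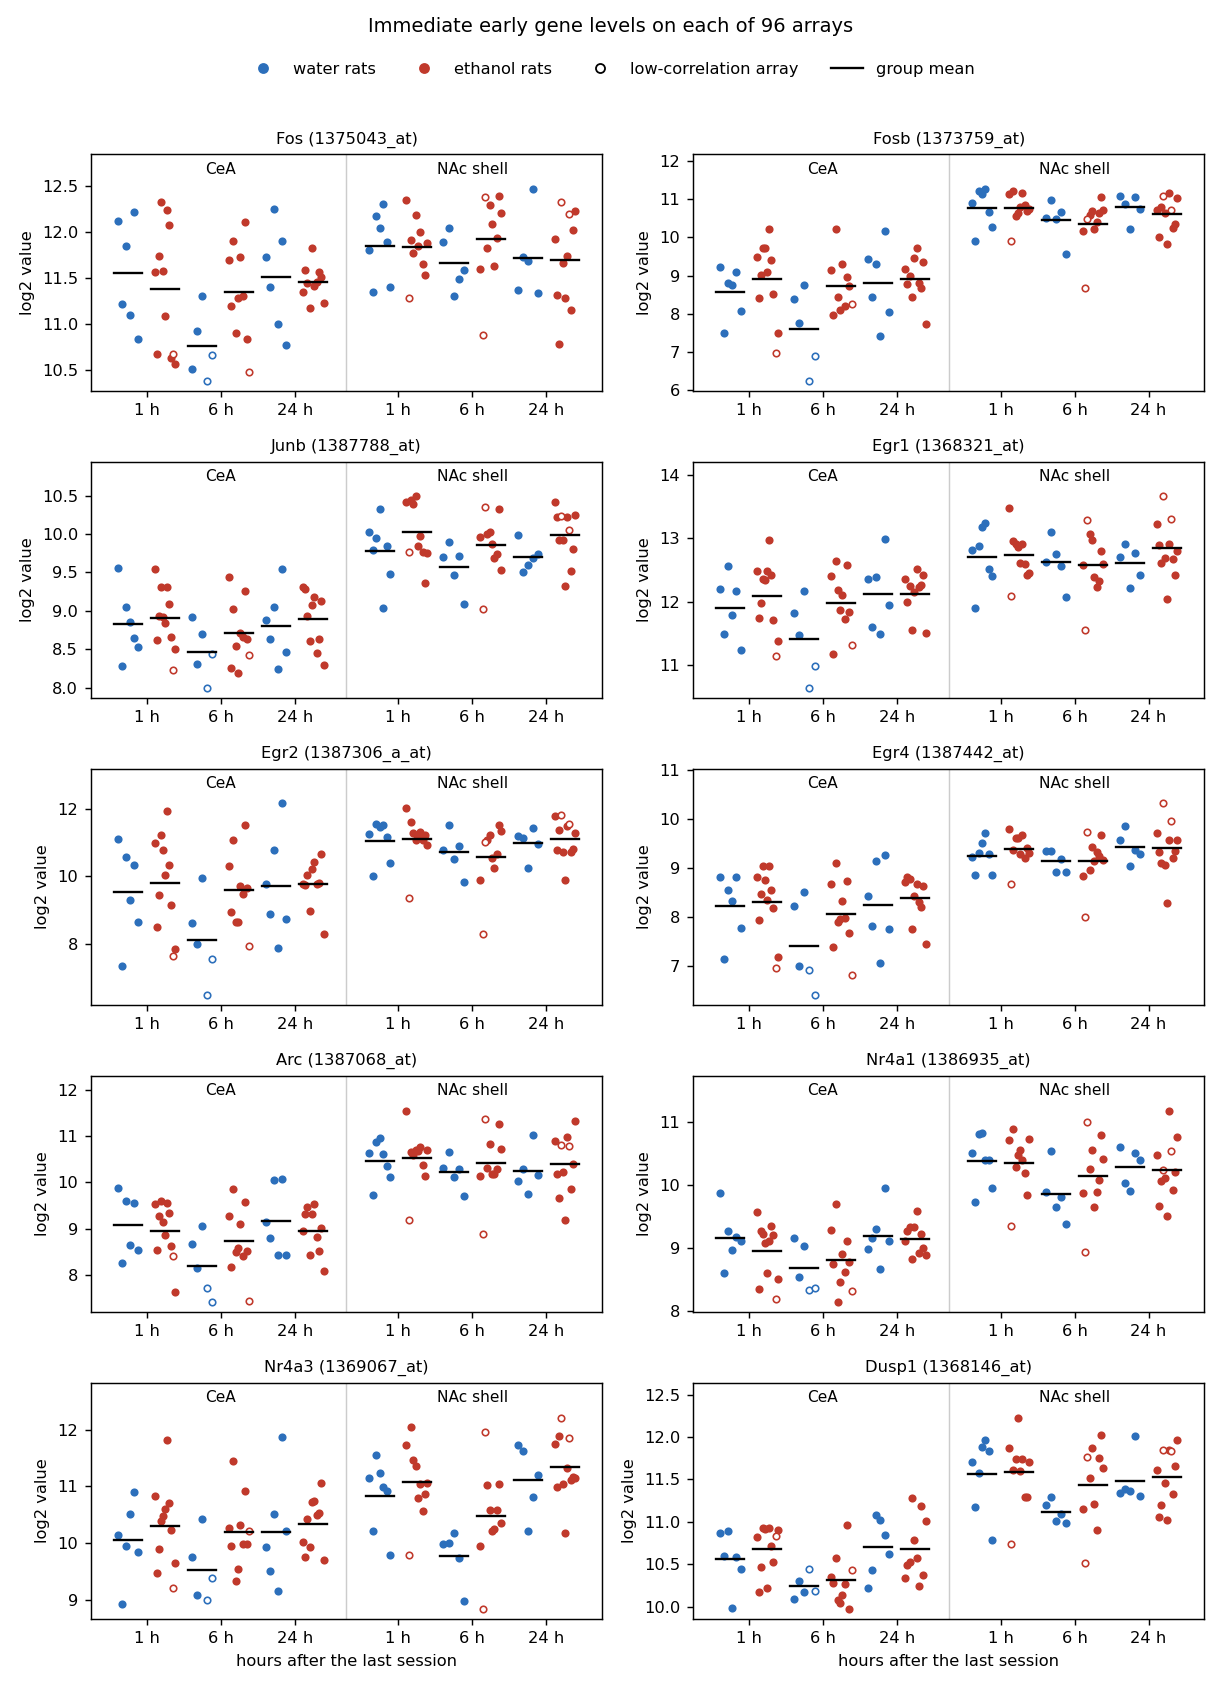
Log2 value of 1 probe set per gene on each array (points), by hours after the last session, treatment and region, with group means as black bars and low-correlation arrays as open points. In the CeA the water arrays at 6 h had the lowest group mean for every gene shown, and the CeA values lay mostly below those of the NAc shell.

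The AP-1 genes encode subunits of the dimer that binds AP-1 sites. Fos, which pairs with Jun proteins, ranged in the CeA from 10.38 through a median of 11.37 to 12.32, and in the NAc shell from 10.78 through 11.83 to 12.46. Fosb, whose truncated product accumulates with repeated drug exposure, ranged from 6.24 through 8.78 to 10.23 in the CeA, whereas the NAc shell ran from 8.68 through 10.68 to 11.25. Junb, a Jun-family partner, ranged from 7.99 through 8.71 to 9.55 and from 9.03 through 9.86 to 10.49. The regions overlapped for each of these genes, and the CeA arrays were the lower on the median.

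The Egr genes encode zinc finger transcription factors that bind GC-rich sites. Egr1 ranged from 10.64 through 12.13 to 12.99 in the CeA, whereas the NAc shell ran from 11.56 through 12.70 to 13.66. Egr2 had the widest spread of the members in the CeA, from 6.47 through 9.73 to 12.17 (SD 1.28, n = 48), and ranged from 8.29 through 11.11 to 12.02 in the NAc shell (SD 0.69, n = 48). Egr4 ranged from 6.40 through 8.32 to 9.27 and from 7.98 through 9.31 to 10.31. As for AP-1, the ranges of the regions overlapped.

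Arc, which encodes a synaptic protein that drives removal of AMPA receptors, ranged from 7.41 through 8.84 to 10.08 in the CeA, whereas the NAc shell ran from 8.89 through 10.37 to 11.55. The nuclear receptor gene Nr4a1 ranged from 8.15 through 9.10 to 9.96 and from 8.94 through 10.27 to 11.19. Its relative Nr4a3, read by probe set 1369067_at, ranged from 8.93 through 10.17 to 11.88 and from 8.83 through 11.001 to 12.21. Dusp1 encodes a phosphatase that switches off MAP kinases and so limits the signal that induces these genes. It ranged from 9.97 through 10.51 to 11.28 in the CeA (SD 0.34, n = 48) and from 10.51 through 11.55 to 12.23 in the NAc shell (SD 0.39, n = 48). With 1 probe set per gene, its SD was the lowest of the members in the CeA, while in the NAc shell that of Junb was lower (SD 0.37, n = 48).

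The first comparison was ethanol against water. No member probe set passed an adjusted p of 0.05 in limma in either region, over the 3 times together or at 1, 6 or 24 h, and neither did any other probe set (0% of 18625 in each of these comparisons). Over the 3 times in the CeA, 1 of 12 member probe sets reached an unadjusted p under 0.05, against 8.16% of all tested, and 11 of 12 lay above 0, against 49.3%. That member was Fosb, 0.53 ± 0.24 higher in ethanol rats (log2 difference ± SE, limma p = 0.0333, adjusted p = 0.594). With the title run as a block, 5 of 12 reached an unadjusted p under 0.05 in limma and the lowest adjusted p was 0.162. With array weights, 8 of 12 did and the lowest adjusted p was 0.0744. Without the 4 low-correlation arrays the count was 0 of 12.

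In the NAc shell over the 3 times, 2 of 13 member probe sets reached an unadjusted p under 0.05, against 11.1% of all tested. Junb was 0.27 ± 0.11 higher in ethanol rats (limma p = 0.0139, adjusted p = 0.324), and Nr4a3 1369067_at was 0.38 ± 0.19 higher (limma p = 0.0456, adjusted p = 0.44). The count was 1 of 13 with the 3 prime minus 5 prime difference of the Gapdh control probe sets as a covariate. It was 3 of 13 with array weights and 3 of 13 without the 5 low-correlation arrays. In water rats of the NAc shell at 24 h, Junb read 9.99, 9.50, 9.60, 9.69 and 9.73, while the 11 ethanol arrays ranged from 9.32 through a median of 10.06 to 10.42. The groups overlapped at 24 h. At 1 and 24 h no member reached an unadjusted p under 0.05 in limma in either region. Of all tested, 5.43% did at 1 h and 0.655% at 24 h for the CeA, and 1.88% and 3.74% for the NAc shell. CeA members differed by -0.22 to 0.34 at 1 h and by -0.21 to 0.14 at 24 h, and NAc shell members by -0.09 to 0.24 and by -0.20 to 0.29.

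At 6 h in the CeA all 12 member probe sets lay above 0, against 46.1% of all tested probe sets, with a member median of 0.57 against -0.02. These probe sets share arrays, and the genes other than Dusp1 varied together (Pearson's r from 0.601 to 0.934, group means removed). The 12 are thus not independent, here or in the other counts of direction. Of the 12, 5 reached an unadjusted p under 0.05, all higher in ethanol rats, against 8.22% of all tested (3.54% higher). They belonged to Fos, Fosb, Egr1, Egr2 and Nr4a3, and none passed the adjustment (limma adjusted p from 0.571 to 0.872 over the 12). With array weights 8 of 12 reached an unadjusted p under 0.05 in limma (lowest adjusted p 0.196), and with the title run as a block 2 of 12 did, Fosb and Nr4a3 1369217_at, with a member median of 0.41 (lowest adjusted p 0.54).

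Fosb at 6 h in the CeA read 8.38, 7.77, 8.76, 6.24 and 6.89 in the water rats (replicates 2, 6, 13, 16 and 17), and ranged from 7.98 through a median of 8.59 to 10.21 over 10 ethanol arrays. Water replicates 6, 16 and 17 lay under every ethanol array, while replicates 2 and 13 lay among them. The difference was 1.13 ± 0.43 (limma p = 0.0125, adjusted p = 0.571).

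Egr2 read 8.60, 8.005, 9.94, 6.47 and 7.54 in the same water rats and ranged from 7.93 through 9.57 to 11.53 in ethanol rats, a difference of 1.48 ± 0.65 (limma p = 0.0276, adjusted p = 0.571). Replicates 16 and 17 again lay under all ethanol arrays, and replicate 13 lay above the ethanol median. Fos read 10.51, 10.92, 11.30, 10.38 and 10.66 in water rats and ranged from 10.48 through 11.29 to 12.10 in ethanol rats, a difference of 0.59 ± 0.27 (limma p = 0.0362, adjusted p = 0.571). Here water replicate 16 lay under every ethanol array and the other 4 lay among them.

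Nr4a3 1369217_at read 7.20, 7.19, 8.34, 7.07 and 7.71 in water rats and ranged from 7.51 through 8.32 to 9.82 in ethanol rats, a difference of 0.97 ± 0.35 (limma p = 0.00828, adjusted p = 0.571). The probe sets 1369067_at and 1393389_at of the same gene gave 0.67 ± 0.35 and 0.37 ± 0.28, neither with an unadjusted limma p under 0.05. Egr1 read 11.82, 11.49, 12.16, 10.64 and 10.99 in water rats and ranged from 11.18 through 11.99 to 12.64 in ethanol rats, a difference of 0.56 ± 0.26 (limma p = 0.0375, adjusted p = 0.571). All these groups overlapped. Dusp1 differed by 0.07 ± 0.17 and Nr4a1 by 0.12 ± 0.22.

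**Figure D2:**
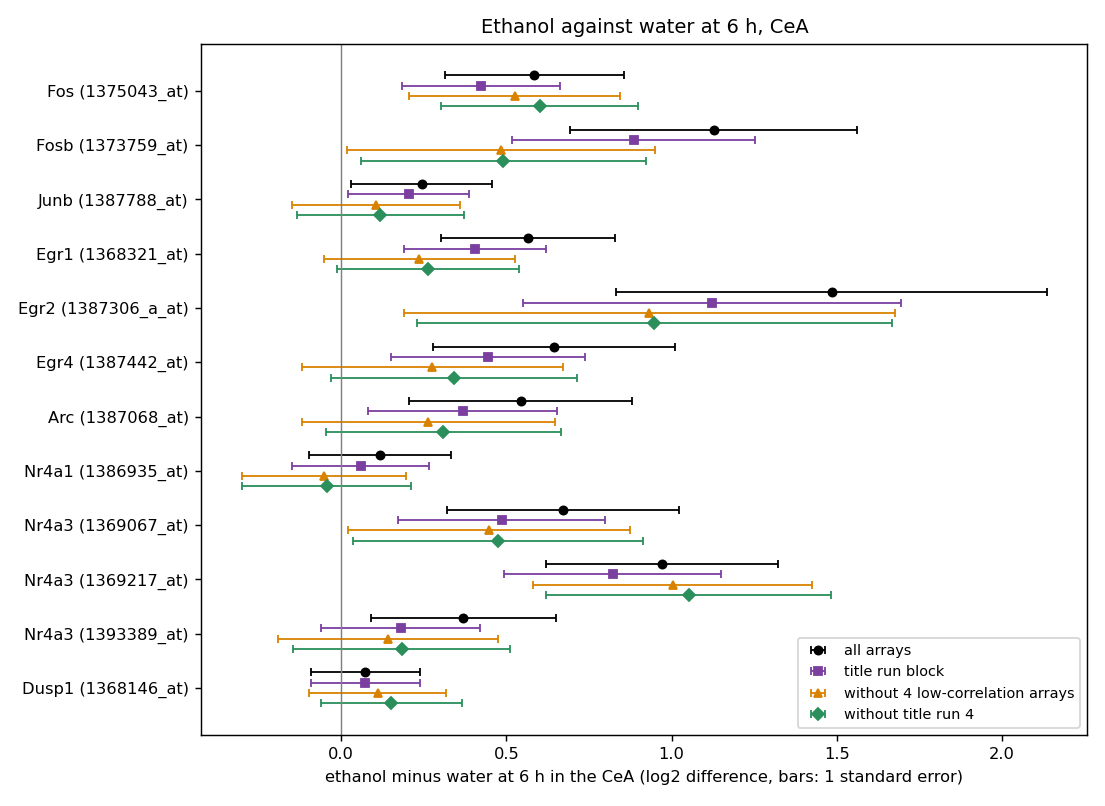
Log2 difference of ethanol minus water at 6 h in the CeA for the 12 tested member probe sets, with 1 standard error, from all arrays and under 3 other settings. Fosb fell from 1.13 with all arrays to 0.48 without the 4 low-correlation arrays, while Nr4a3 1369217_at stayed near 1.00.

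The water arrays at 6 h included both of the water arrays of title run 4. Without the low-correlation arrays, which left 3 water arrays, the differences were 0.48 ± 0.47 for Fosb (limma adjusted p = 0.998), 0.93 ± 0.74 for Egr2 and 0.53 ± 0.32 for Fos, and 1 of 12 members, Nr4a3 1369217_at at 1.00 ± 0.42, reached an unadjusted p under 0.05 in limma. Within the runs, Fosb was 0.77, 1.11 and 1.93 higher in ethanol rats in runs 1, 2 and 4 and 0.12 lower in run 3 (-0.12), each from 1 to 4 ethanol and 1 or 2 water arrays. These are values with no test of their own. Nr4a3 1369217_at was 1.38, 1.25, 0.44 and 0.46 higher in runs 1 to 4. The tested member probe sets other than Dusp1 all had their lowest median of the 4 runs in run 4. Egr2 averaged 8.06 (SD 0.99, n = 8) in run 4 and 9.85 (SD 0.97, n = 8), 9.58 (SD 1.23, n = 16) and 10.07 (SD 1.09, n = 16) in runs 1 to 3, while Dusp1 averaged 10.54 (SD 0.36, n = 8) in run 4 and 10.42 (SD 0.29, n = 8), 10.67 (SD 0.33, n = 16) and 10.48 (SD 0.36, n = 16) in runs 1 to 3.

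The CeA water group at 6 h had the lowest of the 6 group means for all 12 tested member probe sets, against 25.7% of all tested probe sets. Without the low-correlation arrays this held for 11 of 12, against 20.4%. For Fos the 6 group means in the CeA were, from the lowest, 10.75 (SD 0.37, n = 5) in water rats at 6 h, 11.34 (SD 0.52, n = 10) in ethanol rats at 6 h, 11.37 (SD 0.68, n = 11) in ethanol rats at 1 h, 11.45 (SD 0.19, n = 10) in ethanol rats at 24 h, 11.51 (SD 0.56, n = 6) in water rats at 24 h and 11.55 (SD 0.58, n = 6) in water rats at 1 h. Each step above the lowest was smaller than the SD of either neighbour, except that 11.34 and 10.75 differed by slightly more than those groups' SDs. In the NAc shell the water group at 6 h was the lowest for 8 of 13, against 20.7%. Its Fos means spanned 11.66 (SD 0.30, n = 5) in water rats at 6 h to 11.92 (SD 0.47, n = 10) in ethanol rats at 6 h, so neighbouring groups differed by less than their SDs.

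Some lists of cell type markers lay mostly on 1 side of 0 in this comparison, in which 53.9% of all tested probe sets lay below 0. In the CeA at 6 h all 6 tested oligodendrocyte genes lay below 0 in ethanol rats, with a median difference of -0.44, and the mean level of the 6 genes ranged from 11.76 through 13.06 to 13.15 in water rats and from 11.63 through 12.32 to 13.34 in ethanol rats. All 6 tested microglia genes also lay below 0 (median -0.30), while 6 of 7 CeA neuron genes (median 0.40) and 6 of 7 tested striatal projection neuron genes (median 0.40) lay above 0. None of these genes passed the adjustment in limma. An unadjusted p under 0.05 was reached by 1 oligodendrocyte, 3 microglia and 2 CeA neuron genes, against 8.22% of all tested. The mean level of 8 general neuron markers ranged from 11.90 through 12.05 to 12.15 in water rats and from 11.70 through 11.98 to 12.08 in ethanol rats. The part of the markers in the differences of the members was not tested.

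Other genes of the pathway gave no call at 6 h in the CeA in limma. Over all tested probe sets in this comparison 46.1% lay above 0 and 8.22% reached an unadjusted p under 0.05. The genes of a list share arrays, so their counts are not of independent genes. Of 11 tested genes for other rapid activity-regulated transcription factors, 4 lay above 0 and none reached an unadjusted p under 0.05, with a median of -0.08. Of 15 tested effectors and signalling brakes, 11 lay above 0. The regulator of G protein signalling Rgs2 was 0.38 ± 0.17 higher (limma p = 0.0325, adjusted p = 0.571) and Tiparp was 0.26 lower, at -0.26 ± 0.12 (limma p = 0.0407, adjusted p = 0.571). Of 14 tested upstream kinases and constitutive factors, 12 lay above 0, with a median of 0.17. Those with the smallest p were Prkaca, a catalytic subunit of protein kinase A, at -0.19 (limma p = 0.016), the MAP kinase kinase Map2k1 at 0.34 ± 0.16 (limma p = 0.0355), the ribosomal S6 kinase Rps6ka2 at 0.77 (limma p = 0.0385) and the calcium-dependent kinase Camk4 at 0.44 ± 0.21 (limma p = 0.0425), each with an adjusted p of 0.571.

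At 6 h in the NAc shell 10 of 13 member probe sets lay above 0, against 53% of all tested, and 1 reached an unadjusted p under 0.05, against 5.23%. This was Nr4a3 1369067_at, which read 9.98, 9.99, 10.18, 9.73 and 8.99 in water rats and ranged from 8.83 through 10.46 to 11.95 in ethanol rats, a difference of 0.70 ± 0.34 (limma p = 0.0428, adjusted p = 0.899). The highest and the lowest of the ethanol values belonged to low-correlation arrays. The Gapdh end difference averaged 2.00 (SD 0.19, n = 5) in water rats and 1.81 (SD 0.26, n = 10) in ethanol rats at 6 h. With it as a covariate, 0 of 13 reached an unadjusted p under 0.05 in limma. With array weights 3 of 13 did, and likewise without the 5 low-correlation arrays.

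The ethanol effect was also compared between the regions, in a fit that treats all arrays as independent. No member passed an adjusted p of 0.05 in limma at 1, 6 or 24 h, nor did any other of 17572 probe sets (0%). At 6 h, 2 of 12 members reached an unadjusted p under 0.05, against 11.1% of all tested. The ethanol effect was larger in the CeA than in the NAc shell by 1.21 ± 0.51 for Fosb (limma p = 0.0211, adjusted p = 0.426) and by 1.61 ± 0.76 for Egr2 (limma p = 0.0366, adjusted p = 0.437). At 1 h and 24 h none did (2.23% and 1.02% of all tested), and without the low-correlation arrays none did at 6 h. The interaction of ethanol with time within a region gave 0 member calls in limma (0% of all tested in each region), and no member reached an unadjusted p under 0.05 (of all tested, 1.34% did for the CeA and 0.864% for the NAc shell).

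Time after the last session was compared over both treatments, with the 6 h and 24 h groups set against 1 h together, on the same arrays as the ethanol comparisons. In the NAc shell no member passed (15 of 18625 probe sets did, 0.0805%), while 2 of 13, both of Nr4a3, reached an unadjusted p under 0.05 in limma, against 8.41% of all tested. At 6 h, 12 of 13 member probe sets were lower than at 1 h, against 57.2% of all tested, with a member median of -0.19. The lowest adjusted p was that of Nr4a3 1369067_at. Its group means were 10.83 (SD 0.61, n = 7) in water rats and 11.07 (SD 0.64, n = 10) in ethanol rats at 1 h, 9.77 (SD 0.47, n = 5) and 10.48 (SD 0.81, n = 10) at 6 h, and 11.12 (SD 0.62, n = 5) and 11.33 (SD 0.57, n = 11) at 24 h. The 6 h means were the lowest in both treatments, while the groups overlapped. The 6 h level differed from 1 h by -0.83 ± 0.23 and the 24 h level by 0.27 ± 0.22 (joint limma test of both differences, p = 7.26e-05, adjusted p = 0.0703). It did not pass with the Gapdh end difference as a covariate (limma adjusted p = 0.0771), the replicate block (0.0621), no filter (0.0813), the 60th percentile filter (0.0612) or repeated normalization (0.0683), and the highest limma adjusted p over all settings was 0.253. It passed without the 5 low-correlation arrays (-0.89, limma adjusted p = 0.0203) and with array weights (-0.73, limma adjusted p = 0.0169). It also passed when any 1 of 5 arrays was left out, which were ethanol replicates 33 at 1 h, 44 at 6 h and 57 at 24 h and water replicates 24 at 1 h and 32 at 24 h, with limma adjusted p from 0.0329 to 0.0405.

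The 3 probe sets of Nr4a3 disagreed on time. Probe set 1393389_at differed at 6 h from 1 h by -0.49 ± 0.17 and at 24 h by 0.20 ± 0.16, with a joint limma p = 0.000792 (adjusted p = 0.278), and 1369217_at by -0.07 ± 0.19 and -0.13 ± 0.18, with a joint limma p = 0.768. In water rats at 6 h, 1393389_at read 9.51, 9.25, 9.50, 9.51 and 9.13, and its 7 water arrays at 1 h ranged from 9.33 through 10.15 to 10.43. Which transcripts of Nr4a3 each probe set reads was not analysed here.

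**Figure D3:**
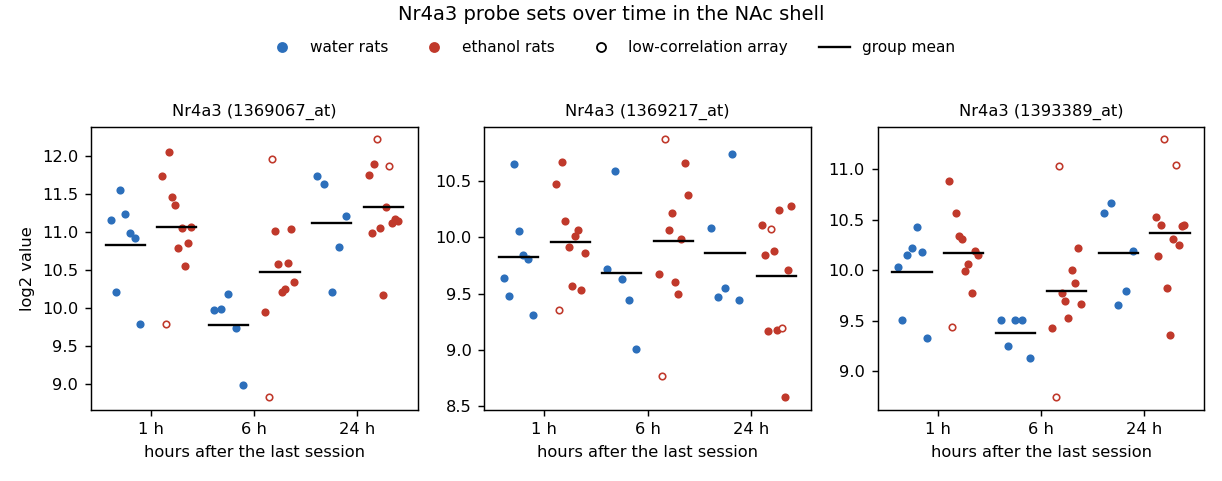
Log2 values of the 3 Nr4a3 probe sets on each NAc shell array (points) by hours after the last session and treatment, with group means as bars and low-correlation arrays as open points. The 6 h means were the lowest for 1369067_at and 1393389_at and not for 1369217_at in ethanol rats.

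In the CeA all 12 member probe sets were lower at 6 h than at 1 h over both treatments, with a median of -0.36 against 0.01 over all tested, and 44.3% of all tested lay at or below 0. None passed the adjustment (0.166% of all tested did), and 5 reached an unadjusted p under 0.05, all lower at 6 h, against 5.56% of all tested, or 2.92% in that direction. These p-values are of the joint test of 6 h and 24 h against 1 h, in which Dusp1 had the smallest. It ranged over 11 ethanol arrays from 10.18 through 10.83 to 10.93 at 1 h and over 10 from 9.97 through 10.28 to 10.96 at 6 h, and in water rats at 6 h it read 10.09, 10.30, 10.17, 10.45 and 10.18. The difference from 1 h was -0.34 ± 0.11 at 6 h and 0.07 ± 0.11 at 24 h (joint limma p = 0.00146, adjusted p = 0.292). The others at 6 h were Nr4a1 at -0.31 ± 0.15, Arc at -0.55 ± 0.23, Fos at -0.42 ± 0.18 and Egr4 at -0.53 ± 0.25, with joint limma adjusted p from 0.704 to 0.896. With the title run as a block, 1 of 12 reached an unadjusted p under 0.05 in limma, and likewise without the low-correlation arrays.

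Split by treatment in the CeA, the change from 1 to 6 h was below 0 for 12 of 12 member probe sets in water rats (42.3% of all tested), with a median of -0.66, 5 at an unadjusted limma p under 0.05 (4.55% of all tested) and 0 called (0%), and for 11 of 12 in ethanol rats (53% of all tested), with a median of -0.16, 1 at an unadjusted limma p under 0.05 (1.9% of all tested) and 0 called (0.0322%). In the NAc shell the change was below 0 for 13 of 13 in water rats (56.4% of all tested), with a median of -0.25. Of these, 3 had an unadjusted limma p under 0.05 (4.2% of all tested). In ethanol rats of the NAc shell it was below 0 for 10 of 13 (58% of all tested), with a median of -0.17. There 1 had an unadjusted limma p under 0.05 (3.76% of all tested). These values share their 6 h arrays with the ethanol comparisons at 6 h. Other genes did pass over time, among them 2 named here. Sgk1, a kinase induced by glucocorticoids, was lower at 6 h than at 1 h in both regions, with -0.60 ± 0.16 in the CeA (joint limma adjusted p = 0.00444) and -0.58 ± 0.11 for the NAc shell (joint limma adjusted p = 0.000383). Klf2, a zinc finger factor, differed by -0.39 ± 0.10 (joint limma adjusted p = 0.0222) and by -0.58 ± 0.12 (joint limma adjusted p = 0.039). Of 7 tested glucocorticoid-induced genes, Sgk1 among them, 7 lay below 0 in each region. Of all tested, 44.3% did for the CeA and 57.2% for the NAc shell. The medians of the 7 genes were -0.27 for the CeA and -0.21 for the NAc shell. Whether they share a cause with the members was not tested.

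Between the regions, over the 6 groups and with all arrays taken as independent, all 12 tested member probe sets were lower in the CeA (limma adjusted p from 6.91e-24 to 2.46e-05). Calls were common in this comparison: 14693 of 17572 probe sets were called (83.6%), 43.6% of those tested as lower in the CeA. The median member difference was -1.12, against -0.02 over all tested, and 2.46% of all tested lay at or below that median. Fosb was lowest at -2.03 ± 0.14, followed by Nr4a3 1369217_at at -1.63 ± 0.13, Arc at -1.53 ± 0.13 and Egr2 at -1.51 ± 0.21. Nr4a1 differed by -1.22 ± 0.09, Egr4 by -1.19 ± 0.12, Junb by -1.05 ± 0.08, Dusp1 by -0.92 ± 0.07 and Egr1 by -0.74 ± 0.10. The smallest differences were those of Nr4a3 1369067_at at -0.67 ± 0.14, Nr4a3 1393389_at at -0.52 ± 0.11 and Fos at -0.45 ± 0.10.

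When quantile normalization was repeated over all 96 arrays, the 12 were again lower in the CeA, for example Fos by -0.50 ± 0.10 and Fosb by -2.03 ± 0.14. The RNA integrity measure also differed between the regions: the 3 prime minus 5 prime difference of the Gapdh control probe sets averaged 2.91 (SD 0.53, n = 48) in CeA arrays and 1.81 (SD 0.25, n = 48) in NAc shell arrays. With it as a covariate all 12 remained called lower, with a member median of -0.92 (limma adjusted p from 1.02e-13 to 0.00222). The measure ran from 2.17 to 3.82 in the CeA and from 1.31 to 2.32 in the NAc shell. The regions thus hardly overlapped on it, so this fit cannot tell region and RNA integrity apart. As a percentile of all probe sets within a region, Fosb stood at 61.4 on CeA arrays and at 83.9 on NAc shell arrays, Arc at 63.7 and 81.7, whereas Fos stood at 90.0 and 93.3. Over all tested probe sets 43.6% were called lower in the CeA and 40% higher, the shares for each list count that follows. Of the related lists, 12 of 15 tested effectors and brakes were called lower in the CeA and 2 higher, for example the kinase Plk2 at -1.37 ± 0.09 (limma adjusted p = 1.44e-26). Among other rapid transcription factors 6 of 11 were called lower and 3 higher, with Nr4a2, the third member of the Nr4a family, at 1.01 ± 0.11 (limma adjusted p = 1.51e-14) and Jun at 0.97 ± 0.05 (limma adjusted p = 6.84e-33). Markers differed between the regions too: all 7 tested striatal projection neuron genes were called lower in the CeA, with a median of -2.48, and 5 of 6 tested oligodendrocyte genes were called higher, with a median of 0.87. Their part in the members' difference was not tested.

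The last question was whether the members varied together among arrays of 1 group. With group means removed, the 9 members other than Dusp1 had pairwise Pearson's r from 0.601 to 0.934 in the CeA (median 0.803 over 36 pairs, 48 arrays) and from 0.466 to 0.922 in the NAc shell (median 0.749). The points share their array, so RNA quality and dissection are common to both genes of a pair. Once the means of the CeA title runs were removed as well, the range was 0.581 to 0.918 there. An array with high Fos thus tended to be high for Fosb, Junb, Egr1, Egr2, Egr4, Arc, Nr4a1 and Nr4a3 in either region.

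**Figure D4:**
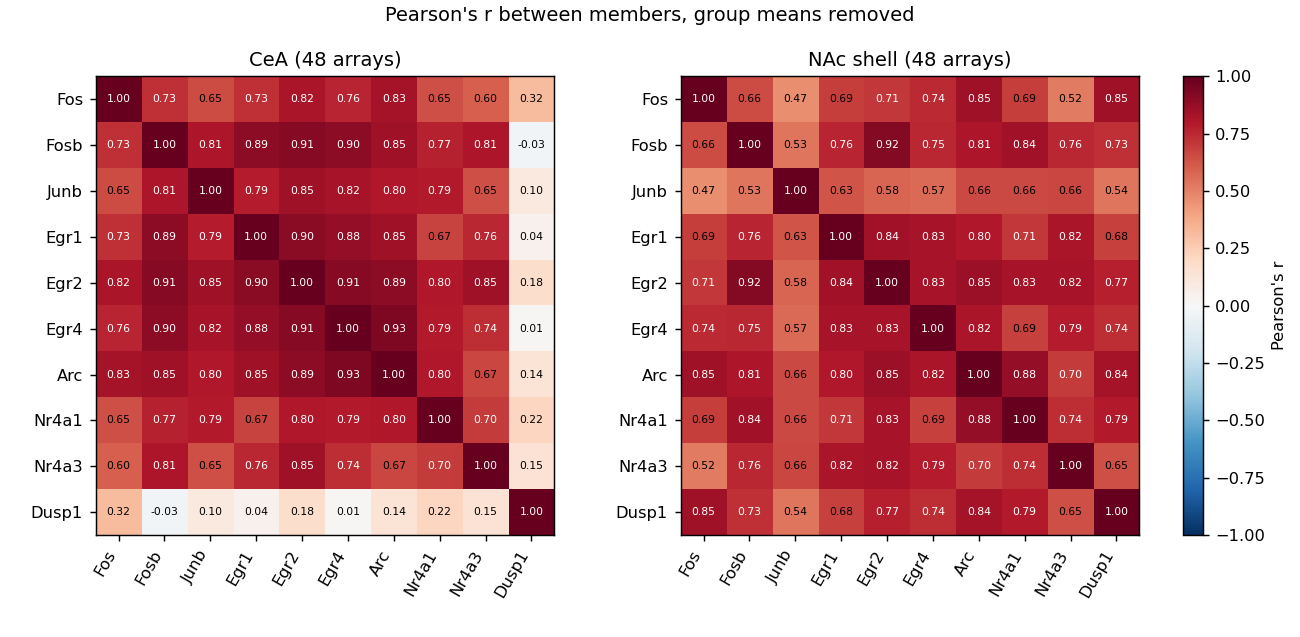
Pearson's r between the 10 members over 48 arrays of each region, with group means removed and 1 probe set per gene. With the other 9, Dusp1 had values from -0.03 to 0.32 in the CeA panel and from 0.54 to 0.85 in the NAc shell panel.

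Taking Fos as the anchor, Arc had the highest Pearson's r in the CeA, r = 0.83 (Spearman's rho = 0.837, permutation p = 1e-05, adjusted over 18 relations 1.2e-05) and gave r = 0.851 in the NAc shell, beside 0.85 for Dusp1 (Arc rho = 0.859, permutation p = 1e-05, adjusted 1.2e-05). The p of 1e-05 is the smallest that 100000 resamples can give. Without the 2 arrays farthest from the Fos median, r was 0.828 and 0.819. Egr2 gave r = 0.818 in the CeA (rho = 0.835, permutation p = 1e-05, adjusted 1.2e-05) and 0.708 in the NAc shell (rho = 0.706, permutation p = 1e-05, adjusted 1.2e-05), and without those 2 arrays 0.813 and 0.717. The lowest value outside Dusp1 was that of Junb in the NAc shell, r = 0.466 (rho = 0.471, permutation p = 0.00071, adjusted 0.000752), which was 0.393 without the 2 arrays. In title run 4 of the CeA the 8 members other than Dusp1 had r with Fos from 0.01 to 0.36 over 8 arrays, against 0.530 to 0.835 in run 1, 0.606 to 0.844 in run 2 and 0.594 to 0.874 in run 3. Nr4a3 with Fos in the NAc shell, r = 0.519 (rho = 0.482, permutation p = 0.00014, adjusted 0.000157), was 0.247 without the 5 low-correlation arrays (permutation p = 0.11, adjusted 0.11). Every other member also had a lower r with Fos in the NAc shell without those 5 arrays. Fosb then gave 0.515 against 0.655 with all arrays, Egr1 0.519 against 0.689 and Egr2 0.572 against 0.708. Egr4 gave 0.58 against 0.744, Nr4a1 0.608 against 0.692, Junb 0.314 against 0.466 and Arc 0.813 against 0.851. Of all tested probe sets, 5.68% in the CeA (7.44% for the NAc shell) had an r with Fos at least as high as the lowest of the 8 members other than Dusp1 (25.3% in the CeA with Dusp1 included), and the median r over all tested was 0.02 and 0.00382.

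Dusp1 stood apart in the CeA, though not evenly over the title runs. Its r with Fos was 0.319 there (rho = 0.309, permutation p = 0.0268, adjusted 0.0268) and 0.85 in the NAc shell (rho = 0.864, permutation p = 1e-05, adjusted 1.2e-05). Without the 2 arrays farthest from the Fos median, r was 0.313 and 0.839. Its r with the other 9 members ranged from -0.03 to 0.32 (median 0.135) in the CeA and from 0.536 to 0.85 (median 0.739) in the NAc shell. The difference of r with Fos between the regions was -0.532 (permutation p = 2e-04, adjusted over 9 members 0.0018), and the smallest adjusted p of the other 8 was 0.782. Within CeA title runs 1 to 4 its r with Fos was 0.698, 0.254, 0.558 and 0.01, over 8, 16, 16 and 8 arrays. With run means removed in the CeA, its r with Fos was 0.456 and the difference -0.394 (permutation p = 0.00135). Its r with the other 9 members in the CeA then ranged from 0.08 to 0.456 (median 0.287). Without the low-correlation arrays of both regions, the r values were 0.404 and 0.806 and the difference -0.401 (permutation p = 0.00317).

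**Figure D5:**
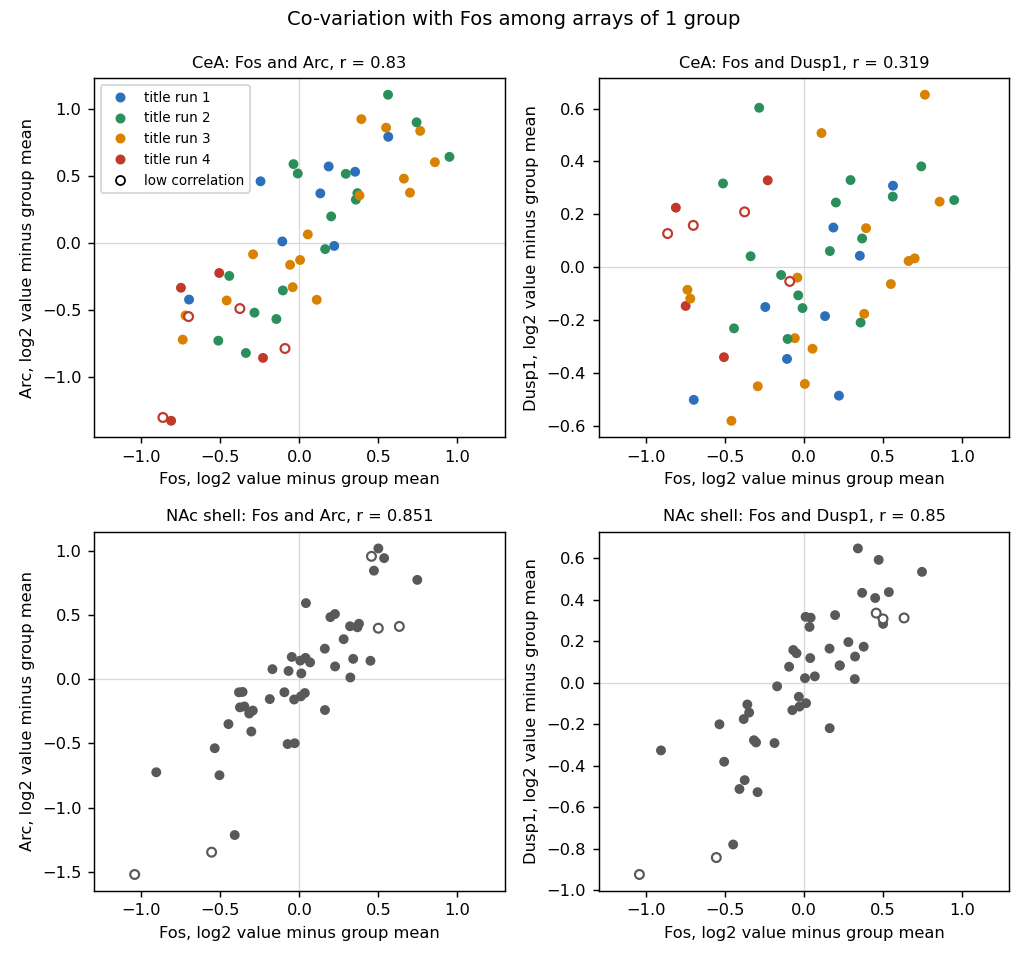
Log2 values minus group means of Arc (left) and Dusp1 (right) against Fos on each array of the CeA (top, coloured by title run) and NAc shell (bottom), with low-correlation arrays as open points. Arc followed Fos in both regions, with r = 0.83 and 0.851, and Dusp1 did so in the NAc shell at 0.85 and less in the CeA at 0.319.

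Levels of cell type markers varied with Fos among arrays of 1 group. In the CeA the mean of 7 CeA neuron markers had r = 0.654 with Fos (rho = 0.637, permutation p = 2e-05, adjusted over 20 relations 8e-05) and 0.62 without the 2 farthest arrays. The mean of 6 oligodendrocyte markers had r = -0.651 (rho = -0.652, permutation p = 1e-05, adjusted 6.67e-05), and -0.648 without the 2. Microglia markers gave -0.60 (rho = -0.621, permutation p = 1e-05, adjusted 6.67e-05, -0.577 without the 2) and general neuron markers -0.53 (rho = -0.536, permutation p = 0.00012, adjusted 0.000343, -0.538 without the 2). Within the CeA run means, the values for CeA neuron and oligodendrocyte markers were 0.558 and -0.582. In the NAc shell the mean of 7 striatal projection neuron markers had r = 0.586 (rho = 0.598, permutation p = 3e-05, adjusted 1e-04, 0.545 without the 2), and oligodendrocyte markers had -0.628 (rho = -0.56, permutation p = 1e-05, adjusted 6.67e-05, -0.518 without the 2). Egr2 had r = 0.847 with the striatal markers there. In the CeA the striatal markers had r = 0.504 with Fos (permutation p = 0.00028, adjusted 0.0007) and 0.72 with Egr2. The CeA neuron markers had r = 0.188 with Fos in the NAc shell (permutation p = 0.199, adjusted 0.306). Endothelial and pericyte markers gave -0.58 in the CeA (permutation p = 2e-05, adjusted 8e-05) and 0.08 in the NAc shell. Blood cell markers gave -0.415 in the CeA (permutation p = 0.00362, adjusted 0.00804) and 0.08 in the NAc shell. The end difference of the Gapdh control probe sets, a measure of RNA integrity, had r = 0.05 with Fos in the CeA (rho = 0.02, permutation p = 0.755, adjusted 0.794, 0.107 without the 2) and 0.138 in the NAc shell (rho = 0.159, permutation p = 0.349, adjusted 0.465, 0.154 without the 2). This difference varied with the CeA title run, from 2.21 to 2.93 in run 2 and from 2.94 to 3.82 in run 3. Its r with Fos in the CeA was 0.181 with run means removed. The part of cell type markers in the co-variation was not tested.

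The genes outside the 10 whose pattern was most like theirs were ranked by r with the mean standardized value of the 10 members over the 48 arrays of a region, with group means removed. In the CeA, among 10274 genes, these were Plk2 (0.887), Exph5 (0.88), Itpka (0.88), Lmo7 (0.878), Fkbp1a (0.876) and Prepl (0.876). In the NAc shell, among 10310 genes, they were Sgip1 (0.914), Plk2 (0.909), Cbr3 (0.897), Jcad (0.89), Ano3 (0.888) and Tesc (0.887). Plk2, a kinase induced by synaptic activity, appeared in both regions, and Itpka encodes a calcium-regulated inositol kinase of dendritic spines.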

How the data were processed

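Total RNA of 96 tissue samples was labelled in a protocol with 2 amplification cycles and hybridised to Affymetrix rat arrays, per the labels' protocols. The deposited values were log2 expression values on which the authors used RMA, per the submitters' processing notes, with the version not given. After 57 control probe sets were left out, 31042 remained. Groups came from the sample titles. limma 3.58.1 in R 4.3.3 (lmFit, eBayes with a trend) was fitted in each region to 6 group means, over probe sets whose mean lay above the region's 40th percentile (6.96 in the CeA, 7.09 in the NAc shell, 18625 each), and in both regions together over 17572. P-values were adjusted by Benjamini-Hochberg over all tested probe sets. Correlations used values with group means removed and 100000 two-sided permutations (Python 3.11.15, scipy 1.17.1, numpy 2.4.6), with 1 probe set per gene. Code was tested on simulated data.

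Of the probe sets, 20826 had 1 gene symbol and 436 several, which were not named. All member probe sets were reported; of each related list, up to 4 genes with the smallest p, and per region the 6 genes most like the members. The lists were other rapid transcription factors, effectors and brakes, upstream kinases and factors, glucocorticoid-induced genes and cell type markers. Members and lists were chosen with earlier results of these data known. Arrays counted as low in correlation lay over 3 scaled median absolute deviations under their region's median. Equal replicate numbers did not pair the arrays: 8 of 17 same-numbered pairs in the CeA and 0 of 3 in the NAc shell correlated above 0.1. Alternatives were other filters, repeated normalization, array weights, a threshold of 0.10, run and replicate blocks, and leaving out arrays. The number of arrays limits the precision.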

Additional observations from a re-analysis of the deposited data

Results flagged for a closer look

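Of 125 combinations of a tested member probe set and a group of 4 to 10 arrays, 9 held 1 array far from the others. Chance gives about 1 in 20 for a single combination. The combinations share arrays and the members vary together, so the count cannot be set against that rate. Ethanol replicate 43 of the NAc shell at 6 h was the lowest of its 10 arrays, with a wide gap, for Fos (10.87, next 11.60), Fosb (8.68, next 10.17), Egr2 (8.29, next 9.90), Egr4 (7.98, next 8.83) and Arc (8.89, next 10.15). Ethanol replicate 33 of the NAc shell at 1 h was likewise the lowest for Fosb (9.90, next 10.57), Egr2 (9.37, next 10.94) and Egr4 (8.66, next 9.21). Both were among the arrays with a low correlation with the rest of their region. Water replicate 33 of the NAc shell at 24 h was the highest of 5 for Dusp1 (12.02, next 11.38). The correlation of Fos with Dusp1 differed between the regions, by -0.532 (CeA minus NAc shell) in a permutation test.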

How the results depend on the processing

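For 28 counts of called members, 1788 of 1796 comparisons with another setting stayed within 1.5 times the count. The other 8 concern time in the NAc shell, where the count of 0 became 1, namely Nr4a3 1369067_at, with an adjusted p threshold of 0.10 (1), with array weights (1) and without low-correlation arrays (1). Leaving out 1 array gave 0 to 1 there. Of 2145 comparisons for single members, 2138 kept direction and call, and 7 gained a call, all for that probe set. The 12 region calls ranged from 10 with a 60th percentile filter to 16 without a filter. With the replicate block (consensus correlation 0.0733 for the CeA and -0.294 for the NAc shell) the counts were 0 at 6 h in the CeA and 12 between the regions, and no call changed. Of 45 comparisons for correlations with Fos, 1 lost its call: Nr4a3 in the NAc shell at 0.247 without low-correlation arrays, and the cause was not tested. The other members kept their calls in that setting, but each had a lower r with Fos in the NAc shell, for example Egr2 at 0.572 against 0.708. Settings without title run 4, with the run block and without low-correlation arrays together, the correlations without low-correlation arrays, the marker correlations, the region difference of r and the lowest-group counts were chosen after seeing the data.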
